A study of Mus musculus with 28 samples.

Results

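The transcriptome of CTLL2 cells taken 4 h after a change to fresh medium with B16F0 exosomes was compared with that of untreated CTLL2 cells at 0 h. The comparison rests on 7 of the 28 RNA sequencing libraries of the series, 3 of exosome-treated cells at 4 h and 4 of untreated cells at 0 h, chosen by sample title. CTLL2 is a mouse cytotoxic T cell line that needs interleukin-2 (IL-2) to grow, and the labels give the strain as C57BL/6. B16F0 is a mouse melanoma line, and exosomes are small vesicles that cells release into their medium. The treated cells received fresh complete medium and exosomes in PBS at a final 0.2 mg/ml, whereas the 0 h cells had neither. Fresh medium, exosomes and 4 h of culture therefore came together in the treated group and cannot be told apart in this comparison alone. Untreated cells at 4 h (n = 3), which had fresh medium and no exosomes, and exosome-treated cells at 2 h and 8 h (n = 3 each) were used beside it. Both groups are cultures of 1 cell line, and the series design calls the replicates biological.

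A T cell line that divides on IL-2 draws on several programmes that can be read from messenger RNA. Hypoxia-inducible factor (HIF) switches on genes of glucose uptake, glycolysis and oxygen handling when oxygen is short, and its proteins are destroyed when oxygen is plentiful. SREBP transcription factors turn on cholesterol synthesis when membrane sterol is low. The IL-2 receptor acts through STAT5 on survival genes, and NF-kB, held in the cytoplasm by IkB proteins, drives inflammatory genes together with the genes of its own inhibitors.

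The sample descriptions name 2 batches, without saying what they differ in. Exosome 4 h replicate 2 and 0 h replicate 1 are from batch 1, and the other 5 libraries are from batch 2. Values per library are given below in the order of replicates 1 to 3 for exosome 4 h and 1 to 4 for 0 h. All are normalized counts, that is, reads divided by the authors' size factor of the library, and they compare a gene between libraries, not genes with each other. Gene positions are on GRCm38. Depth was 16554370, 24085812 and 13399840 reads in the exosome 4 h libraries and between 10587840 and 16107682 in the 0 h libraries. Markers of the line were present in every library: Cd3g, a chain of the T cell receptor complex, lay between 6787 and 10144 normalized counts in exosome 4 h libraries and between 6368 and 9049 at 0 h. Gzmb, which encodes granzyme B, lay between 33592 and 41169 in exosome 4 h libraries and between 30625 and 47273 at 0 h. Of the markers of other cell types, 3 of 12 macrophage and 3 of 8 B cell genes were expressed enough to be tested and none was called, while Col1a2, a collagen chain, was the 1 called gene of 5 tested fibroblast genes and lost the call without 6 of the 7 libraries in turn. The summed level of the 10 fibroblast genes was 110 to 194 in exosome 4 h libraries and 70.2 to 102 at 0 h. Longer transcripts read lower in the treated libraries, and transcripts with more G and C read higher. The median log2 fold change was 0.072 in the shortest of 4 equal bins of transcripts and -0.083 in the longest, and it was 0.139 and -0.173 in exosome 4 h replicate 1. In 4 equal bins of GC content the median was -0.060 in the lowest and 0.071 in the highest. Genes called lower had a median length of 4070.5 bases and a median GC of 47.4%. For genes called higher these were 2720 bases and 53.5%, and for all tested genes 2864 bases and 49.4%. The part of transcript length and GC in the results below was not tested, other than by the correction given with the processing alternatives.

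Exosome 4 h libraries differed from 0 h libraries at 630 of 14828 genes tested, 315 higher and 315 lower, each 2.12% of the genes tested (limma on log2(normalized count + 1), batch in the model, Benjamini-Hochberg adjusted p below 0.05). The higher genes were of 2 kinds. For 44 of them the mean at 0 h was below 10 normalized counts, and their median log2 fold change was 3.50. The other higher genes were expressed at 0 h and had a median log2 fold change of 0.37, and the lower genes had a median of -0.49. Only 11 of the genes expressed at 10 or more normalized counts at 0 h rose by more than 1 on the log2 scale, and 51 genes fell by more than that. Within batch 1 and within batch 2 the direction was the same for 621 of the 630. The change that was called combines these 2 within-batch changes, so the call itself favours such agreement. The count therefore describes the called genes and is no separate test, and batch 1 holds 1 library of each group. The 3 treated libraries did not overlap with the 4 at 0 h for 202 of the higher and 160 of the lower genes, and over all genes tested such separation was seen for 6.57% upward and 5.86% downward.

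**Figure D1:**
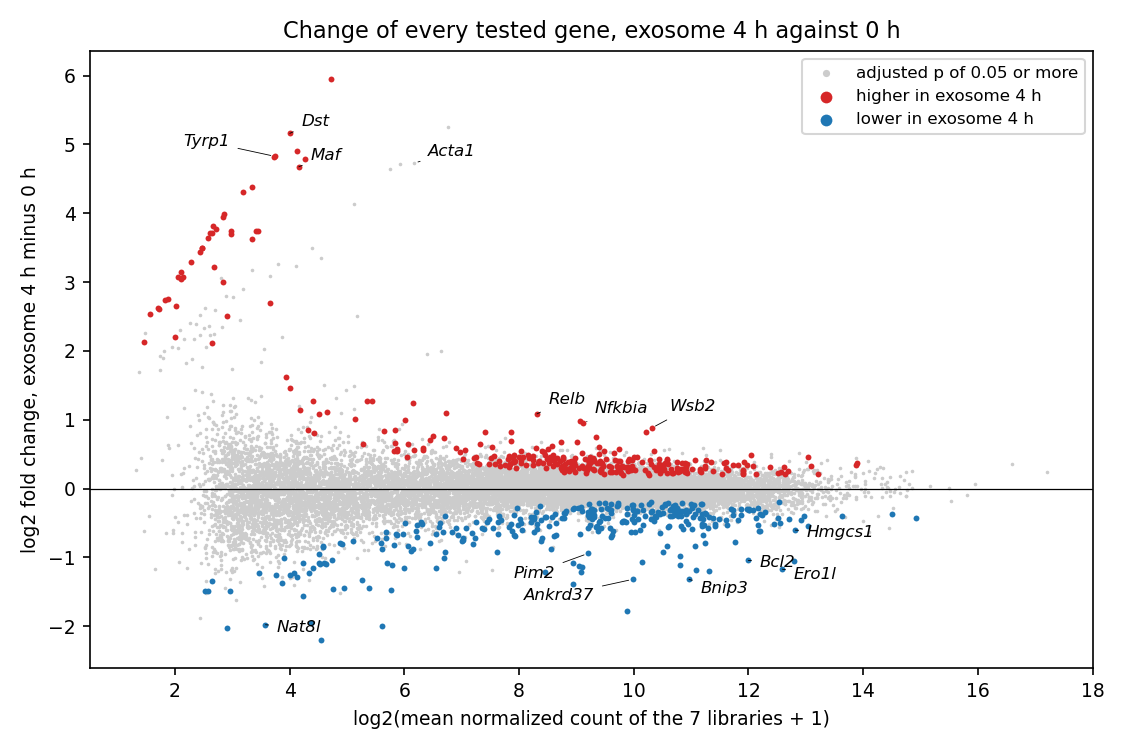
Log2 fold change of exosome 4 h minus 0 h (vertical axis) against log2(mean normalized count of the 7 libraries + 1) (horizontal axis), 1 point per tested gene, with genes higher in exosome 4 h in red, genes lower in blue and genes with an adjusted p of 0.05 or more in grey. The 315 higher genes include 44 near 0 counts at 0 h at the upper left, and most changes of well expressed genes lie within 1 of 0 on the log2 scale.

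The count rested in part on single libraries. Without exosome 4 h replicate 1, 152 genes were called (60 higher and 92 lower), without replicate 3 it was 336, and without replicate 2 it was 837. Leaving out 0 h replicate 3 or 4 gave 368 and 313. In exosome 4 h replicates 1 and 2 skeletal muscle transcripts were also raised, as described with the transcripts near 0 counts, and with both left out 93 genes were called, 31 higher and 62 lower, with the lone remaining library assumed to vary like the other groups.

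Targets of HIF fell together in the treated cells. Of 17 list members tested, 11 were lower and 0 higher, against 2.12% lower among all genes, with a list median of -0.53 on the log2 scale and 0.01 over all genes. The lower members were Bnip3, Ankrd37, P4ha1, Ero1l, Pdk1, Bnip3l, Egln1, Ddit4, Kdm3a, Mxi1 and Ndrg1, and the 6 that did not pass, Vegfa among them, lay between -0.34 and 0.10. In bulk RNA, fewer cells carrying a transcript and less of it per cell cannot be told apart. Since promoters of HIF targets often carry the core letters ACGTG, the windows of 4 of the most lowered genes are shown, from 250 bases before to 50 after the RefSeq start (GRCm38.p6), each read 5′ to 3′ on its gene's strand, with matches on either strand in capitals. The windows are those of Bnip3 (chr7:138909457-138909756, minus strand), Ankrd37 (chr8:45999801-46000100, minus strand), P4ha1 (chr10:59323046-59323345, plus strand) and Slc2a1 (chr4:119108495-119108794, plus strand).
Bnip3: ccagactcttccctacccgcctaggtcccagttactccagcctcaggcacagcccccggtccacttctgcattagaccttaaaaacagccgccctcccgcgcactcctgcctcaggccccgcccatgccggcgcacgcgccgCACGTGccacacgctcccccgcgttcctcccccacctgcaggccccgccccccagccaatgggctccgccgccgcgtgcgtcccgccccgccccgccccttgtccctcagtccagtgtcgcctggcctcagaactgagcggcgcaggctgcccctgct
Ankrd37: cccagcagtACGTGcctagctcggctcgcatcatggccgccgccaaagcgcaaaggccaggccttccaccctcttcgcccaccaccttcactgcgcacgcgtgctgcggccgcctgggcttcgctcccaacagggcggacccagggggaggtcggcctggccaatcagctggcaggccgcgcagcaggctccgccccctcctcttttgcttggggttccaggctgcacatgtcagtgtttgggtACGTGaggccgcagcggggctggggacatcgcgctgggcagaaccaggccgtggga
P4ha1: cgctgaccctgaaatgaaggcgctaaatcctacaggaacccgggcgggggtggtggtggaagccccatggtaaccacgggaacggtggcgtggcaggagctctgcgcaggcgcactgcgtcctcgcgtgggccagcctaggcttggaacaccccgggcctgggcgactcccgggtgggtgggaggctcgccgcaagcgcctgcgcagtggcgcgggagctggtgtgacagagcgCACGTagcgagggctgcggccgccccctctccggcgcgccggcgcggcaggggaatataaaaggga
Slc2a1: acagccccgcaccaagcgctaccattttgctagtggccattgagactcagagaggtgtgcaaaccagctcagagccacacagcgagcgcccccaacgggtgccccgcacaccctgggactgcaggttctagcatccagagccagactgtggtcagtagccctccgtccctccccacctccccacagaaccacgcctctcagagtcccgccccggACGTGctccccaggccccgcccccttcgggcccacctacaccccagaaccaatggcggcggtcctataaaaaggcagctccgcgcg
The letters ACGTG, on either strand, occurred in at least 1 window of 11 of the 16 lowered HIF and glycolysis genes that had one, out of 18 lowered. Among all 32851 windows 19.6% held them. The 16 genes had 23 windows between them, so a gene with several had more chances of a match, and a match is a description of the letters, not of bound HIF.

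Bnip3, a mitochondrial protein of mitophagy (chromosome 7 from 138890836 to 138909519), had 789, 1937 and 796 normalized counts in exosome 4 h libraries, against 3868, 1902, 2263 and 2406 at 0 h. The batch 1 libraries were the highest of both groups, so the groups overlapped across batches, but within each batch every treated library was below every 0 h library. The log2 fold change was -1.32 ± 0.13 (SE; adjusted p = 7.81e-07), -1.46 within batch 2 and -0.997 within batch 1. Pdk1, the kinase that holds back pyruvate dehydrogenase, had 1265, 2066 and 1282 in exosome 4 h libraries, against 3478, 2175, 2306 and 2467 at 0 h. It showed the same layout with no overlap, and a log2 fold change of -0.83 ± 0.08 (adjusted p = 7.66e-07). P4ha1, a subunit of the prolyl hydroxylase of collagen, had 828, 2112 and 1120 in exosome 4 h libraries, against 3905, 2264, 2535 and 2433 at 0 h, a log2 fold change of -1.18 ± 0.15 (adjusted p = 3.26e-05). Ero1l, an oxidase of the endoplasmic reticulum (Ero1a in RefSeq), fell by 1.17 ± 0.13 on the log2 scale. Ankrd37, an ankyrin repeat gene, fell by 1.32 ± 0.28, with 301, 1513 and 268 in exosome 4 h libraries, against 2424, 711, 924 and 936 at 0 h. These 5 genes stayed called when any 1 of the 7 libraries was left out. With exosome 4 h replicates 1 and 2 both left out 7 of the list were called, and with no batch term in the model 1 was.

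Glucose uptake and several steps of glycolysis were lower as well. Of 18 members tested, 7 were lower and 0 higher, against 2.12% of all genes in each direction, with a median of -0.17. Hk2, the hexokinase that traps glucose, had 987, 2113 and 1398 normalized counts in exosome 4 h libraries, against 4697, 2761, 2975 and 2949 at 0 h. Slc2a1, which encodes the glucose carrier GLUT1, had 850, 1670 and 880 in exosome 4 h libraries, against 3050, 1861, 2244 and 1991 at 0 h. Pfkl, a subunit of phosphofructokinase, had 1611, 1767 and 1760 in exosome 4 h libraries, against 3217, 2811, 2810 and 2888 at 0 h. In all 3 genes every treated library was below every 0 h library. The log2 fold changes were -1.20 ± 0.25 for Hk2 (adjusted p = 0.00748), -1.11 ± 0.13 for Slc2a1 (adjusted p = 5.2e-06) and -0.79 ± 0.09 for Pfkl (adjusted p = 4.83e-06). Gpi1, the next enzyme after hexokinase, fell by 0.41 ± 0.07, and Pfkp, Aldoa and Pgam1 were the other lower members. Other late enzymes were not called: Eno1, enolase, was at -0.02 ± 0.09, Pkm at 0.06, Pgk1 at 0.06 and Ldha, which makes lactate, at -0.03. Without exosome 4 h replicate 1, Hk2 lost its call (adjusted p = 0.114) and 4 members of the list were called, and with replicates 1 and 2 both left out 2 were.

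**Figure D2:**
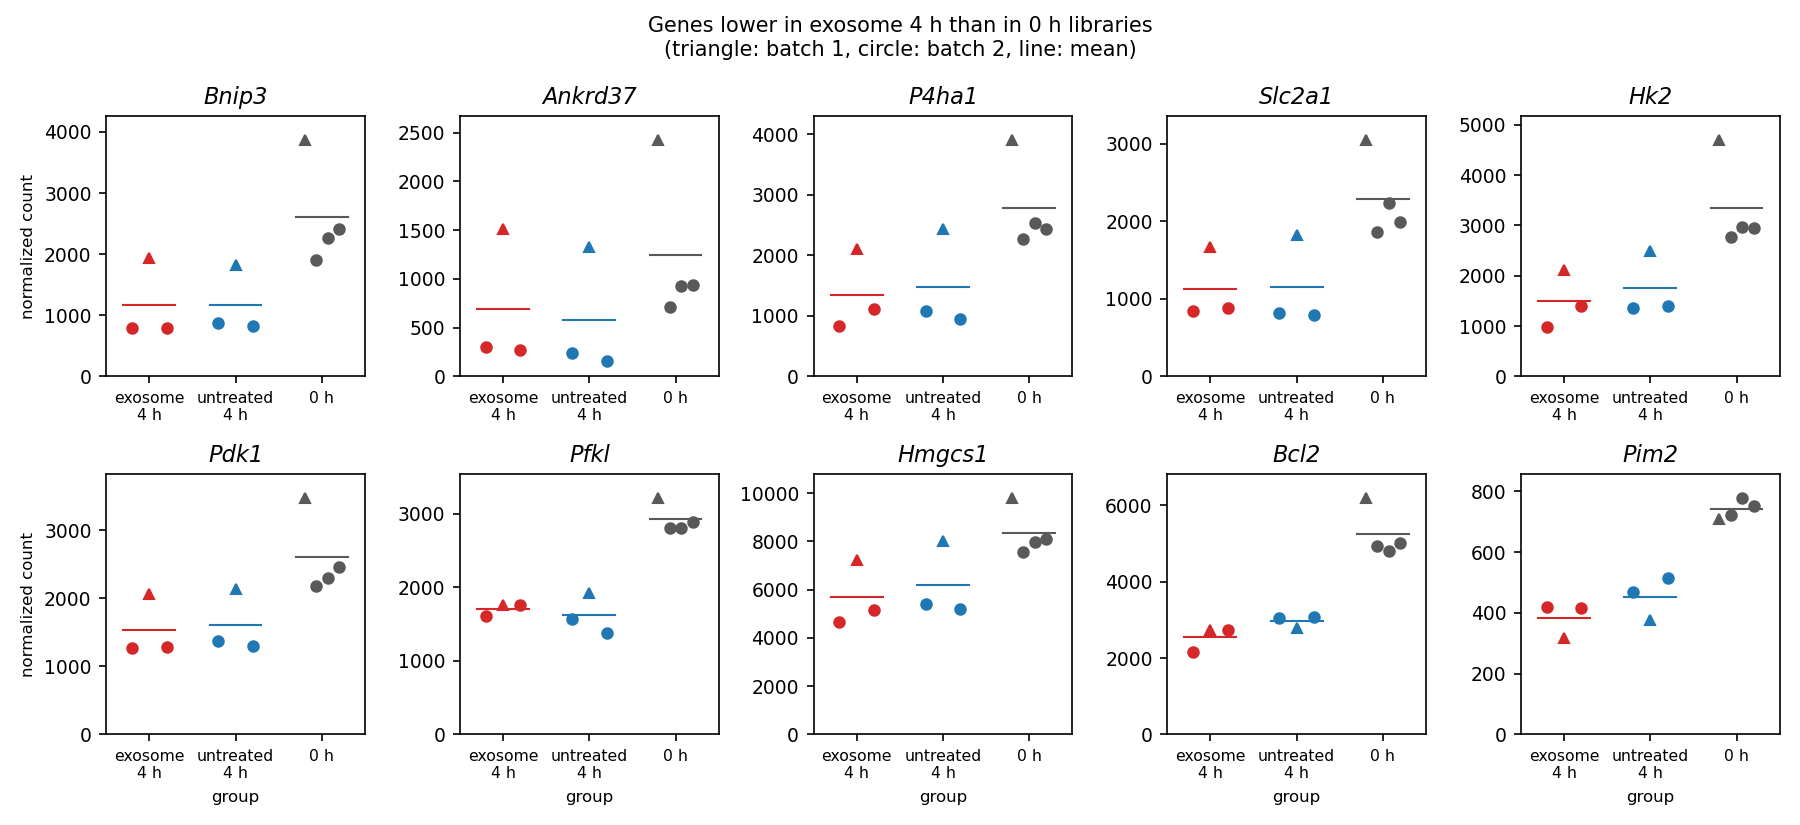
Normalized counts (vertical axes, linear from 0) of 10 genes in exosome 4 h (red), untreated 4 h (blue) and 0 h (grey) libraries, 1 point per library, with triangles for batch 1, circles for batch 2 and lines for group means. Pfkl lies at 1611 to 1767 in exosome 4 h and 2810 to 3217 in 0 h libraries, and the batch 1 library is the highest of its group for Bnip3, Ankrd37, P4ha1, Slc2a1, Hk2, Pdk1 and Hmgcs1.

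Genes of cholesterol synthesis and uptake fell. All 23 members tested had a log2 fold change below 0, with a median of -0.31, and 14 were lower and 0 higher by the test, against 2.12% of all genes each way, with the other 9 between -0.36 and -0.02. Those named here include Hmgcs1 at the start of the pathway, Fdft1, Sqle and Cyp51 in the middle, and Msmo1 and Hsd17b7 in the sterol steps. Fdft1, squalene synthase, had 622, 1069 and 649 normalized counts in exosome 4 h libraries, against 1405, 982, 1135 and 1067 at 0 h. Its batch 1 treated library overlapped with the batch 2 libraries of 0 h, and the log2 fold change was -0.63 ± 0.10 (adjusted p = 0.000472). Hsd17b7, a ketosterol reductase, had 587, 569 and 518 in exosome 4 h libraries, against 898, 741, 734 and 738 at 0 h. It did not overlap, and fell by 0.47 ± 0.07 (adjusted p = 0.000154). Msmo1, the methylsterol oxidase, had 1637, 1626 and 1504 in exosome 4 h libraries, against 2250, 2168, 2277 and 2366 at 0 h, and fell by 0.52 ± 0.09 with no overlap. Hmgcs1, which makes HMG-CoA, fell by 0.60 ± 0.09 (adjusted p = 0.0002), with 4672, 7226 and 5174 in exosome 4 h libraries, against 9806, 7576, 7962 and 8103 at 0 h. Scd2, a fatty acid desaturase that SREBP also controls, was the 1 lower gene of 9 tested in fatty acid synthesis, at -0.44 ± 0.10, and it lost the call without exosome 4 h replicate 1 (adjusted p = 0.18). None of 6 tested LXR targets, which act in sterol export, was called. The list had 8 calls without exosome 4 h replicate 1, 9 without replicate 3 and 5 with replicates 1 and 2 both left out.
The RefSeq window of Hmgcs1 (chr13:119690101-119690400, plus strand, GRCm38.p6) is shown with a sterol regulatory match to TCACNCCAC in capitals.
Hmgcs1: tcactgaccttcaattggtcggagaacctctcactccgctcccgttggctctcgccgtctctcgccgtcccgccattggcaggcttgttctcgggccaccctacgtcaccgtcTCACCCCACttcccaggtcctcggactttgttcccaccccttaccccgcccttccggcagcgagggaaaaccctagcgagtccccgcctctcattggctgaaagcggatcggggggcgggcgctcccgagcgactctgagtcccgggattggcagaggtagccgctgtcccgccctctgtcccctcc
Of the 8 lowered sterol genes with a window, 1 held these letters on either strand, Hmgcs1, against 1.24% of all windows.

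Bcl2 and Pim2, survival genes of IL-2 signalling, were among the most lowered well expressed genes. Of 17 IL-2 receptor and STAT5 targets tested, 3 were lower and 0 higher, against 2.12% each way over all genes, with a median of -0.05, and the 14 that did not pass lay between -0.16 and 0.19. Bcl2, which blocks mitochondrial apoptosis (chromosome 1 from 106538178 to 106714274), had 2162, 2741 and 2742 normalized counts in exosome 4 h libraries, against 6199, 4943, 4820 and 5006 at 0 h. Pim2, a serine/threonine kinase (chromosome X from 7878262 to 7883432), had 419, 318 and 416 in exosome 4 h libraries, against 710, 724, 778 and 751 at 0 h. Neither gene overlapped between the groups, and the log2 fold changes were -1.04 ± 0.11 (adjusted p = 2.12e-06) for Bcl2 and -0.94 ± 0.08 (adjusted p = 1.15e-07) for Pim2. Both stayed called in each of the 22 alternatives run. Osm, the cytokine oncostatin M, fell by 0.46 ± 0.10. Il2ra, the alpha chain of the IL-2 receptor, averaged 15906 ± 1388 in exosome 4 h libraries (SD, n = 3) and 17300 ± 1094 at 0 h (SD, n = 4), a log2 fold change of -0.10 ± 0.10 (adjusted p = 0.563). Myc was at -0.16 ± 0.06 (adjusted p = 0.148), and Pim1, Cish and Socs2 lay between -0.13 and 0.02.

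NF-kB targets were higher, with most of the rise in batch 2. Of 19 tested, 9 were higher and 0 lower, against 2.12% higher among all genes, with a median of 0.38. The members that rose were largely NF-kB subunits (Relb, Nfkb2 and Rel) and IkB proteins (Nfkbia, Bcl3, Nfkbiz and Nfkbid), together with Tnf and Traf1. Relb had 641, 181 and 595 normalized counts in exosome 4 h libraries, against 170, 243, 201 and 187 at 0 h. Nfkbia, which encodes the inhibitor IkB alpha (chromosome 12 from 55489410 to 55492647), had 985, 370 and 973 in exosome 4 h libraries, against 277, 448, 387 and 424 at 0 h. In both genes the batch 2 treated libraries stood above all 0 h libraries and the batch 1 treated library lay among them. The log2 fold change of Relb was 1.08 ± 0.27 (adjusted p = 0.0209), made of 1.56 within batch 2 and 0.09 within batch 1, and the batches differed in the test of that difference (adjusted p = 0.0155). For Nfkbia it was 0.95 ± 0.22, made of 1.22 within batch 2 and 0.42 within batch 1 (adjusted p of the difference 0.0207). Bcl3 was at 0.62 ± 0.14 with 0.11 within batch 1, and Nfkbiz at 0.57 ± 0.13 with 0.43 within batch 1. Nfkbid was at 0.52 ± 0.14, with 0.55 within batch 2 and 0.52 within batch 1, and did not overlap between the groups. Over the list the median was 0.52 within batch 2 and 0.12 within batch 1. The count rested on few libraries: 1 member was called without exosome 4 h replicate 1, 2 without replicate 3, 5 without 0 h replicate 4, and 11 without exosome 4 h replicate 2. Nfkbia lost its call without exosome 4 h replicate 1 (adjusted p = 0.142) or 3 (adjusted p = 0.0752), and Relb without exosome 4 h replicate 1 (adjusted p = 0.217) or 3 (0.106) or 0 h replicate 3 (0.0537) or 4 (0.0673). Bcl3, Nfkbiz and Nfkbid lost theirs without exosome 4 h replicate 1 as well, Bcl3 and Nfkbid also without exosome 4 h replicate 3 or 0 h replicate 4, and Nfkbid without 0 h replicate 1.
The RefSeq window of Nfkbia (chr12:55492598-55492897, minus strand, GRCm38.p6) is shown with its match to a kB motif in capitals, searched as ggga and tcc with 3 bases of any kind between them.
Nfkbia: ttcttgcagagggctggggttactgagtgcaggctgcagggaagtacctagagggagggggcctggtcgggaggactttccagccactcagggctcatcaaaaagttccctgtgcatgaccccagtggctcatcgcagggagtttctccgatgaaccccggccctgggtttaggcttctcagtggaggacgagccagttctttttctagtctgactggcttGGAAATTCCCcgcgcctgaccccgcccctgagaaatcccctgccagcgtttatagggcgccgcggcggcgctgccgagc
These letters, on either strand, occurred for 2 of the 7 raised NF-kB genes with a window, Nfkbia and Nfkb2, against 4.59% of all windows. The 7 genes had 11 windows between them, so a gene with several had more chances of a match.

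**Figure D3:**
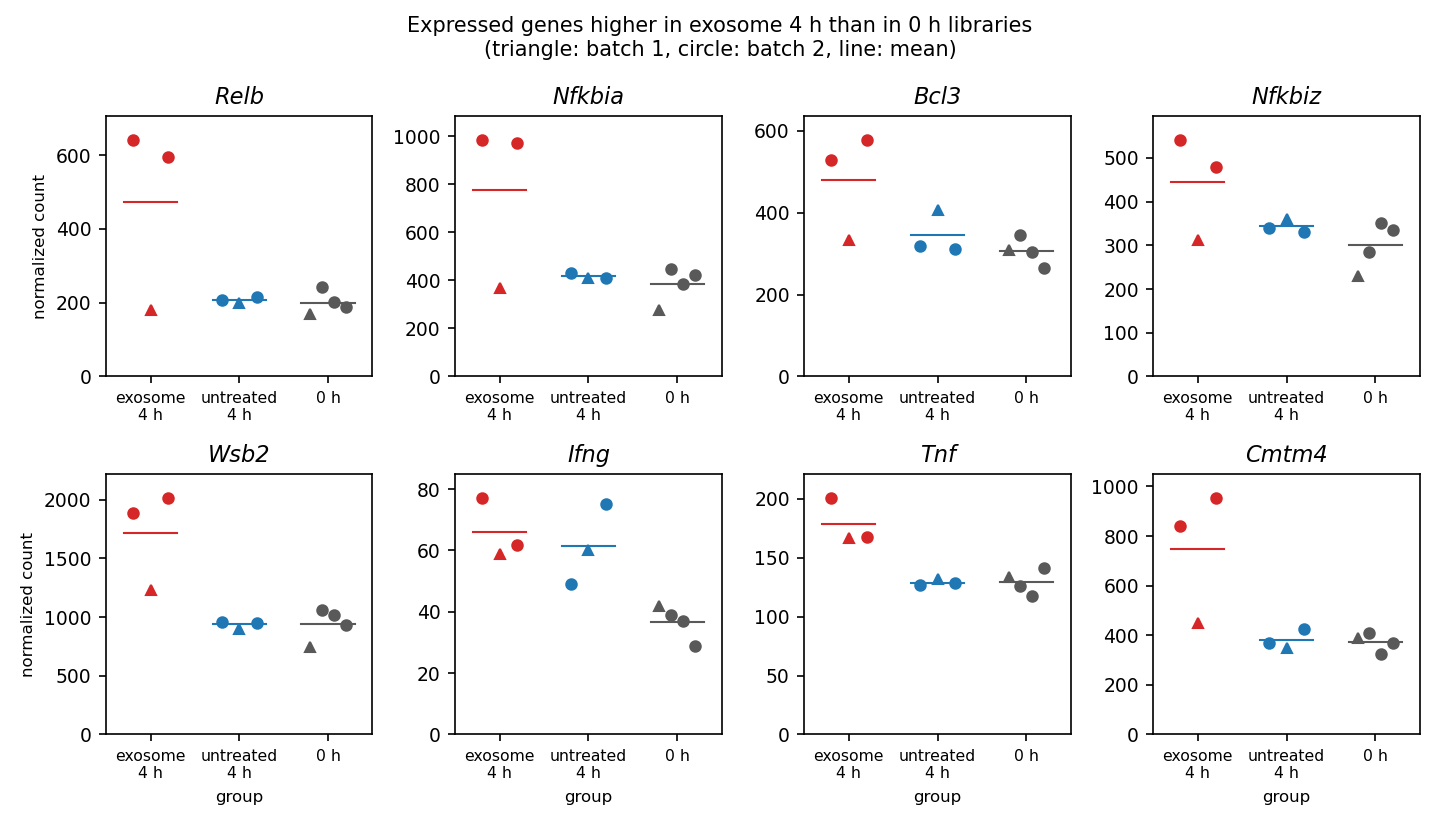
Normalized counts (vertical axes, linear from 0) of 8 expressed genes in exosome 4 h (red), untreated 4 h (blue) and 0 h (grey) libraries, 1 point per library, with triangles for batch 1, circles for batch 2 and lines for group means. For Relb the batch 2 exosome libraries lie at 595 and 641 and the batch 1 library at 181, among the 0 h libraries at 170 to 243.

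Most tested genes of the T cell lists were not called. This held for 14 of 16 cytotoxic effectors, 16 of 18 genes of T cell identity and 11 of 17 T cell transcription factors. Over all genes 14198 of 14828 were not called, and 7602 lay above 0. Of 16 cytotoxic effectors tested, 2 were higher, Ifng and Tnf, against 2.12% of all genes, and 15 of 16 lay above 0, with a median of 0.28. Ifng, which encodes interferon gamma, had 77.1, 58.9 and 61.9 normalized counts in exosome 4 h libraries, against 41.8, 38.9, 37.0 and 28.7 at 0 h. Tnf had 201, 167 and 168 in exosome 4 h libraries, against 134, 126, 118 and 141 at 0 h. In neither did the groups overlap, and the log2 fold changes were 0.83 ± 0.19 for Ifng (adjusted p = 0.0111) and 0.46 ± 0.12 for Tnf (adjusted p = 0.0308). Gzmb was at 0.04 ± 0.09 (adjusted p = 0.838). Ifng lost its call without exosome 4 h replicate 1 (adjusted p = 0.141), as did Tnf (adjusted p = 0.234), which also lost it without 0 h replicate 2 (0.0683) or 3 (0.0878).

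Among 17 T cell transcription factors tested, 4 were higher and 2 lower, against 2.12% of all genes each way. Tbx21, the T-bet factor of type 1 responses, rose by 0.32 ± 0.07 (adjusted p = 0.0123), with 1053, 1198 and 1010 normalized counts in exosome 4 h libraries, against 929, 880, 818 and 798 at 0 h. Batf3, an AP-1 partner factor, rose by 0.46 ± 0.11 (adjusted p = 0.0162), and Irf8 was at 0.24. Maf, the fourth, was near 0 counts at 0 h and is described with such transcripts. Prdm1, which encodes the Blimp-1 repressor of effector cells, was lower, at 631, 1727 and 957 in exosome 4 h libraries, against 2963, 1422, 1451 and 1523 at 0 h. The batch 1 libraries were the highest of each group, and the log2 fold change was -0.83 ± 0.21 (adjusted p = 0.0227), -0.91 within batch 2 and -0.78 within batch 1. Id2 fell by 0.34 ± 0.09. The 2 called genes of 18 for T cell identity were Cd8a at 0.70 ± 0.16 and Trac, the constant part of the receptor alpha chain, at 0.59 ± 0.16, both weakly expressed. Ctla4, a brake on T cell activation, was the 1 lower gene of 7 inhibitory receptors, with 26.9, 273 and 27.0 in exosome 4 h libraries, against 437, 44.8, 51.8 and 42.6 at 0 h, a log2 fold change of -0.72 ± 0.19 (adjusted p = 0.0282). Its level in batch 1 was several times that in batch 2 in both groups. Il18r1, the IL-18 receptor, was at -0.48 ± 0.13, with -0.76 within batch 2 and 0.16 within batch 1 (adjusted p of the difference 0.0227). Il12rb2, a chain of the IL-12 receptor, was at -0.13 ± 0.12 (adjusted p = 0.548). Ptpn11, the gene of the SHP2 phosphatase, stood at -0.04 ± 0.06 (adjusted p = 0.753). Among the genes called here, Tbx21, Batf3, Prdm1, Id2, Cd8a, Ctla4 and Il18r1 lost the call without exosome 4 h replicate 1, with adjusted p between 0.0818 and 0.272, and Trac did without replicate 2 or 3. Without 0 h replicate 1, Prdm1, Id2, Ctla4 and Trac lost it. Without 0 h replicate 2, Il18r1 and Trac did. Without 0 h replicate 3, Id2, Ctla4, Il18r1 and Trac did, and without 0 h replicate 4, Batf3, Id2, Cd8a, Il18r1 and Trac did. Without exosome 4 h replicate 3, Batf3, Id2, Prdm1, Ctla4 and Il18r1 lost it as well. Over all these cases the adjusted p lay between 0.0511 and 0.272.

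**Figure D4:**
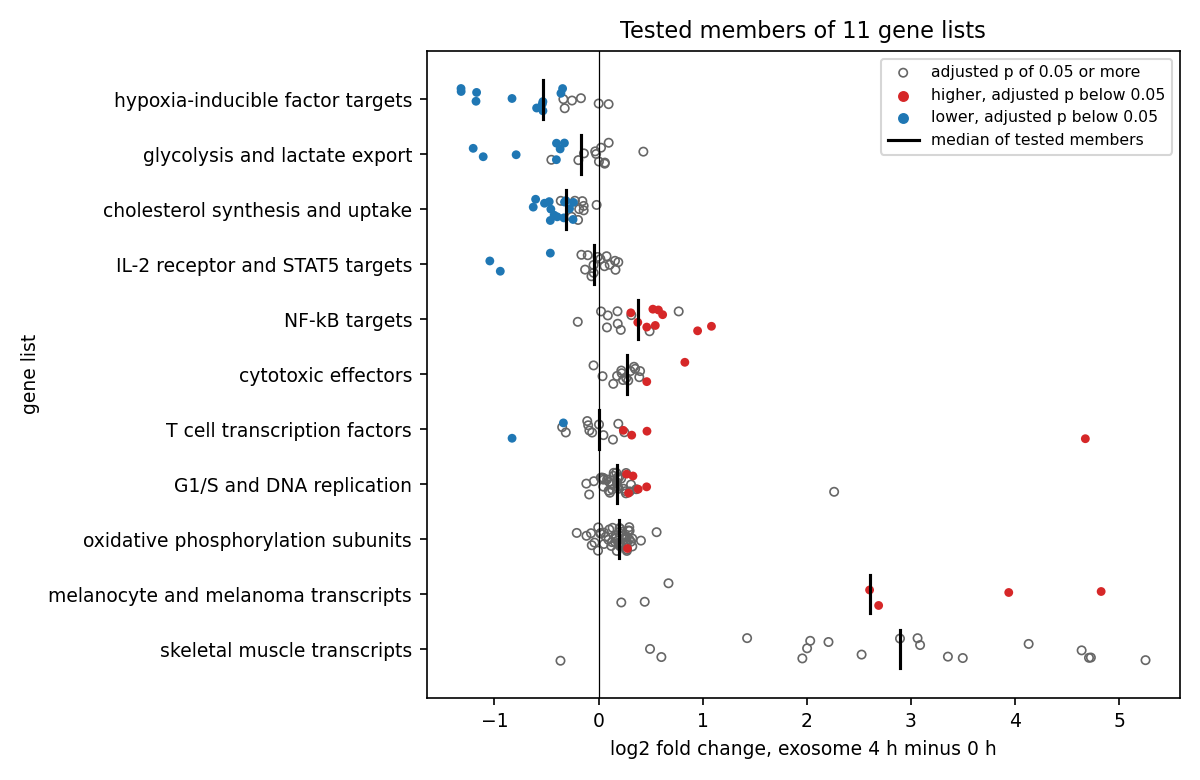
Log2 fold change of exosome 4 h minus 0 h (horizontal axis) of the tested members of 11 gene lists (rows), with filled points for members called higher (red) or lower (blue), open points for the others and a black bar at the list median. The median is -0.53 for HIF targets, -0.31 for cholesterol genes and 0.38 for NF-kB targets, and no muscle transcript is called although 18 of 19 lie above 0.

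The largest rises were of transcripts with no reads or very few in the 0 h libraries. Genes at 0 in every 0 h library entered the test only through libraries of other groups and could hardly be called other than higher, so their count is a description. Melanocyte and melanoma genes were among them: of 12 listed, 7 were expressed enough to be tested and 4 of these were higher, Tyrp1, Trpm1, Dct and Mitf. Over all genes tested 2.12% were higher. With DESeq2 1 member of the list was called, and with only genes averaging at least 50 normalized counts tested, none was. Tyr, Sox10, Slc45a2, Oca2 and Mlana were too low to be tested, although Slc45a2, a transporter of melanosomes, had 7.52 to 10.1 normalized counts in exosome 4 h libraries and 0 at 0 h, and Pmel, Mc1r and Gpnmb were not called. Tyrp1, a melanin synthesis enzyme (chromosome 4 from 80834123 to 80851719), had 37.7, 13.2 and 36.0 normalized counts in exosome 4 h libraries, from 95 reads, and 0 reads in all 4 libraries at 0 h. This is at least 31.35-fold higher against a floor of 3 reads over the 0 h group. Dct, another enzyme of that pathway, had 20.6, 27.6 and 22.5 in exosome 4 h libraries, against 2.88, 2.36, 2.78 and 3.19 at 0 h, a ratio of reads of 8.61 (95% counting interval 4.47 to 18.6, from 87 and 10 reads). Trpm1, a channel of melanocytes, had 49 reads in the treated group and 0 at 0 h, and Mitf, the melanocyte transcription factor, had 18 and 0, so that they were at least 16.2-fold and 5.94-fold higher. Pmel, a melanosome protein, had 5.38, 17.6 and 10.1 in exosome 4 h libraries, against 8.65, 10.6, 7.40 and 3.19 at 0 h, and the groups overlapped. The summed level of the list was 172 to 246 in exosome 4 h libraries and 46.1 to 173 at 0 h, most of it from Gpnmb, which had 72.1 to 134 in exosome 4 h libraries and 30.3 to 154 at 0 h. Whether these reads came from inside the cells or from exosomes held by them was not tested.

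Genes of other kinds stood beside the pigment genes. Dst, a linker of the cytoskeleton, had 46.6, 23.8 and 34.9 normalized counts in exosome 4 h libraries and 0 reads at 0 h, at least 39.9-fold higher. Rbfox2, an RNA-splicing factor, was at least 31.0-fold, Lbh at least 23.8-fold, Rnf144a, a ubiquitin ligase, at least 22.8-fold, Peg10, an imprinted gene of retrotransposon origin, at least 16.8-fold and Cdc42ep1 at least 11.2-fold higher, each with 0 reads at 0 h. Ryk, a Wnt receptor, had 41.3, 15.7 and 57.4 in exosome 4 h libraries, against 0, 1.18, 0 and 0 at 0 h, from 122 reads and 1 read (ratio 121, interval 21.3 to 4809). Maf, a transcription factor, had 10.8, 72.7 and 33.7 in exosome 4 h libraries, against 0, 0, 0 and 1.06 at 0 h (ratio 156, interval 27.7 to 6216). Sh3pxd2a, a scaffold of invasive protrusions, had 36.8, 46.4 and 40.5 in exosome 4 h libraries, against 4.33, 0, 0 and 0 at 0 h (ratio 49.8, interval 16.7 to 244). In each of these 9 genes all 3 treated libraries were above all 4 at 0 h, which describes them and supports nothing further, since they entered the test through the libraries in which they were high. No molecular identifiers were used, so these intervals and floors describe counting error and nothing else.

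Skeletal muscle transcripts also appeared in treated libraries, but not in all of them. Acta1, skeletal muscle actin, had 415, 75.2 and 2.25 normalized counts in exosome 4 h libraries, against 2.88, 0, 0.926 and 0 at 0 h, a log2 fold change of 4.73 ± 1.69 (adjusted p = 0.111). Replicates 1 and 2 were high and replicate 3 was at the level of 0 h. Of 19 muscle genes tested none was called and 18 lay above 0, with a median of 2.90. The summed level of the list was 1353 to 5573 in exosome 4 h libraries and 1444 to 3565 at 0 h. At 0 h most of it came from Neb, at 698 to 3010, and Ckm, at 398 to 564. In exosome 4 h libraries Neb lay at 602 to 1798 and Ckm at 567 to 1042, while Myh4 lay at 0 to 631 and Tnnt3 at 0 to 357. Tnnt3, Tnni2, Tnnc2, Myh1, Myh2, Myh4 and Pvalb were at 0 in every 0 h library. Acta1 above 50 was also seen in untreated libraries at 2 h and 8 h. In exosome 4 h replicate 3, with Acta1 at 2.25, Tyrp1 was at 36.0, Dct at 22.5 and Trpm1 at 14.6 normalized counts. The part of muscle transcripts in the other results was not tested beyond the counts without both libraries.

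**Figure D5:**
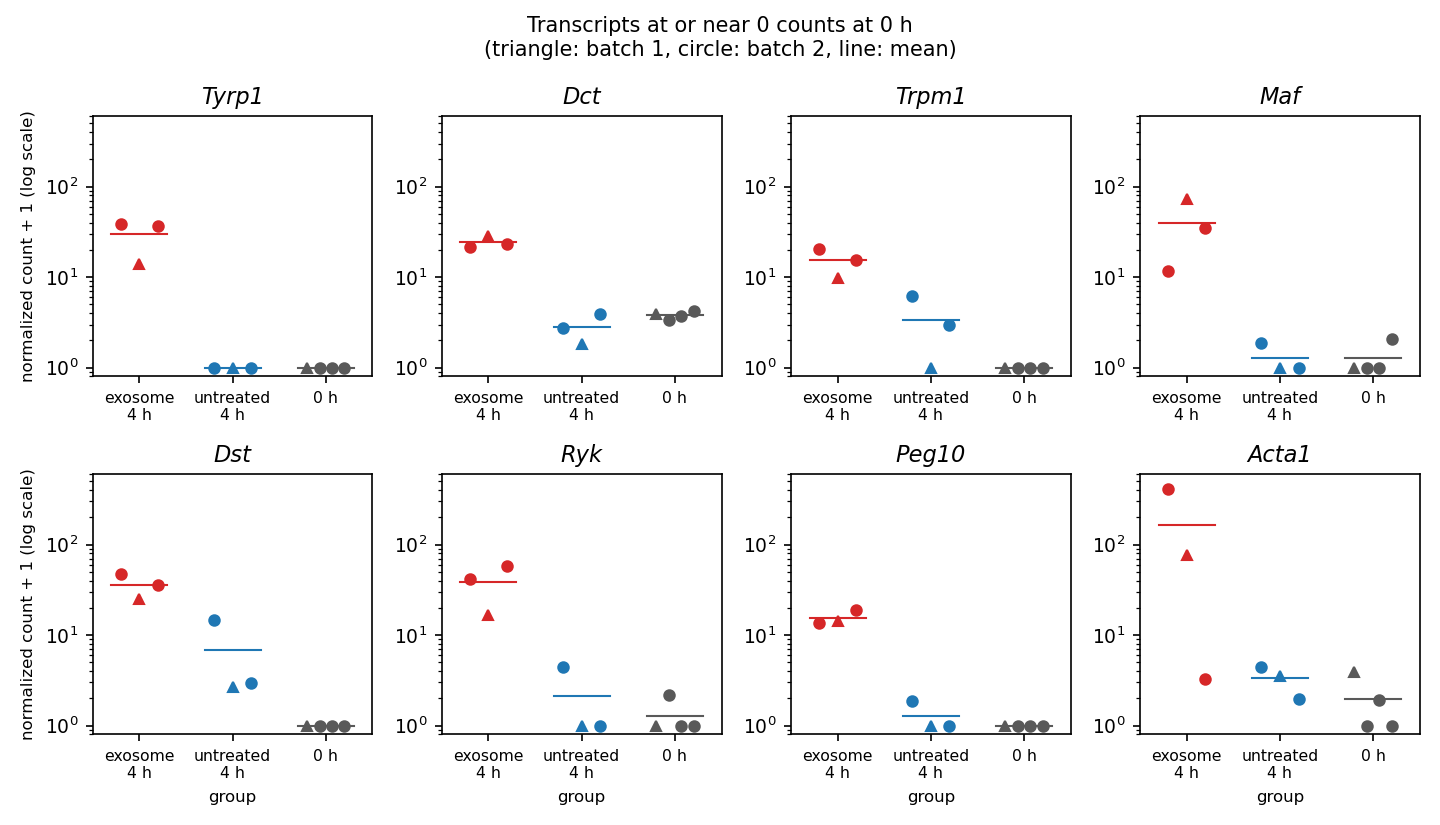
Normalized count + 1 (vertical axes, log scale) of 8 transcripts in exosome 4 h (red), untreated 4 h (blue) and 0 h (grey) libraries, 1 point per library, with triangles for batch 1, circles for batch 2 and lines for group means. Tyrp1 lies at 13.2 to 37.7 normalized counts in exosome 4 h libraries and at 0 in untreated 4 h and 0 h libraries, while Acta1 is high in 2 of the 3 exosome libraries.

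Among genes averaging at least 500 normalized counts, the largest rises without overlap were those of Cmtm4, Wsb2, Gnas, Qprt, Cdc34, Taf10, Nfkbid and Lpxn. Wsb2, an adaptor of a ubiquitin ligase (chromosome 5 from 117357304 to 117378601), had 1891, 1235 and 2017 normalized counts in exosome 4 h libraries, against 747, 1059, 1017 and 936 at 0 h, a log2 fold change of 0.88 ± 0.15 (adjusted p = 0.00106). Cmtm4, a membrane protein whose human form stabilises PD-L1, had 840, 450 and 954 in exosome 4 h libraries, against 388, 410, 326 and 370 at 0 h. Its log2 fold change of 0.98 ± 0.22 was made of 1.28 within batch 2 and 0.21 within batch 1 (adjusted p of the difference 0.0207). Gnas, which encodes the stimulatory G protein alpha subunit, was at 0.81 ± 0.17, and Qprt, an enzyme of NAD synthesis, at 0.68 ± 0.10 (adjusted p = 0.000113), with 770, 525 and 659 in exosome 4 h libraries, against 316, 429, 481 and 436 at 0 h. Cdc34, a ubiquitin-conjugating enzyme, was at 0.58 ± 0.15, Taf10, a subunit of TFIID, at 0.52 ± 0.15 and Lpxn, an adhesion adaptor, at 0.50 ± 0.12. Wsb2 and Qprt stayed called with any 1 library left out. Cmtm4 lost its call without exosome 4 h replicate 1 or 3, Gnas without replicate 1, Cdc34 without exosome replicate 1 or 3 or 0 h replicate 1, 3 or 4, Lpxn without exosome replicate 1 or 0 h replicate 1, and Taf10 under every library left out but exosome replicate 2, with adjusted p between 0.0524 and 0.296 over these cases.

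Several of the most lowered genes by size of change were weakly expressed. Nat8l, which makes N-acetylaspartate, had 0.897, 7.52 and 3.37 normalized counts in exosome 4 h libraries, against 30.3, 14.1, 12.0 and 8.51 at 0 h, a log2 fold change of -1.98 ± 0.40 (adjusted p = 0.00446). Cdkn2b, the CDK inhibitor p15, had 26.9, 29.5 and 33.7 in exosome 4 h libraries, against 59.1, 75.4, 64.8 and 66.0 at 0 h, a log2 fold change of -1.09 ± 0.19 (adjusted p = 0.0011). The groups did not overlap in either. Serpinb9f was at -1.26 ± 0.35 (adjusted p = 0.0439), Spocd1 at -1.16 ± 0.26 and Fhl4 at -1.01 ± 0.25. Rara, the retinoic acid receptor alpha, was well expressed and had 482, 621 and 625 in exosome 4 h libraries, against 1011, 933, 900 and 865 at 0 h, a log2 fold change of -0.70 ± 0.11 (adjusted p = 0.0002). Cdkn2b and Rara stayed called with any 1 library left out, Nat8l and Fhl4 lost the call without exosome 4 h replicate 1, Fhl4 also without 0 h replicate 3, Spocd1 without exosome replicate 1 or 3, and Serpinb9f with any of the 7 left out, with adjusted p between 0.0527 and 0.232.

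The other lists held few calls, to be read against 2.12% of all genes in each direction. Of all 14828 genes tested, 7602 lay above 0. Of 50 oxidative phosphorylation subunits tested, 43 lay above 0 and 1 was called, higher. Their median was 0.20, with 0.29 within batch 2 and 0.07 within batch 1. Of 38 genes of G1/S and DNA replication, 5 were higher, Ung at 0.46 ± 0.10 among them, 35 lay above 0 and the median was 0.17, with 0.24 within batch 2 and -0.04 within batch 1. Of 28 genes of G2/M and mitosis none was called. Of 36 genes of MYC and ribosome biogenesis, 2 were higher and 32 lay above 0, with a median of 0.22 within batch 2 and -0.11 within batch 1. Of 24 immediate early genes, 2 were higher, Ier2 at 0.42 ± 0.11 and Ier5, and Rhob was lower. Etv4, an ETS factor downstream of ERK, was the 1 called gene of 11 in ERK feedback, at 0.75 ± 0.16, with 1.08 within batch 2 and -0.10 within batch 1 (adjusted p of the difference 0.00519). Of the cytokines and chemokines, 11 were tested, and beside Ifng, Tnf and Osm the gene called was Lif, at -0.57 ± 0.16. Hspa5, the main chaperone of the endoplasmic reticulum, was the 1 higher gene of 19 in the unfolded protein response, at 0.37 ± 0.10. Of 22 lysosome and autophagy genes, 2 were higher, Sqstm1, an autophagy receptor, at 0.46 ± 0.10 among them, and Wipi1 was lower at -0.64 ± 0.13. Hmox1, heme oxygenase, was the 1 called of 16 in NRF2 and metal response, at -0.45 ± 0.10, and Phlda3 the 1 called of 17 p53 targets, at 0.54 ± 0.16. Of 13 FOXO and quiescence genes, 2 were lower, Ccng2, a cyclin of resting cells, at -0.56 ± 0.11 among them. Cdk6, which drives entry into S phase, fell by 0.46 ± 0.12, and it and Cdkn2b were the 2 lower among 13 cyclins, CDKs and inhibitors. None of 12 type I interferon genes, 13 clock genes and 12 aminoacyl-tRNA synthetases was called, and Txnip, a glucose-responsive gene, was at 0.20 ± 0.07 (adjusted p = 0.0944). Without exosome 4 h replicate 1, Ung, Ier2, Etv4, Hspa5, Sqstm1, Wipi1, Hmox1, Phlda3, Ccng2 and Cdk6 lost the call, with adjusted p between 0.0582 and 0.427, while Lif kept it there and lost it without any of the other 6. Ier2, Hspa5, Phlda3 and Cdk6 also lost it without exosome 4 h replicate 3 or 0 h replicate 4. Ier2, Sqstm1, Hmox1, Phlda3 and Cdk6 lost it without 0 h replicate 1. Ier2, Hspa5 and Phlda3 did so without 0 h replicate 2, and Hspa5 and Phlda3 without 0 h replicate 3.

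The untreated 4 h libraries are of cells with fresh medium and 4 h of culture but no exosomes. They share the 0 h libraries with the comparison above, so values are given side by side and the difference was tested directly, as exosome 4 h minus untreated 4 h. Untreated 4 h replicate 1 stands apart, with 15.7% of genes at 0 reads, against 27.8 to 35.2% in exosome 4 h libraries and 34.2 to 36.0% at 0 h. Untreated 4 h cells differed from 0 h at 33 genes higher (0.223%) and 144 lower (0.971%), 177 in all, and at 103 without untreated 4 h replicate 1, 52 without replicate 3 and 113 without 0 h replicate 4. The 17 HIF targets had a median of -0.53 in exosome 4 h and -0.50 in untreated 4 h cells, with 11 and 10 lower, and the 23 cholesterol genes a median of -0.31 and -0.27, with 14 and 9 lower. Bnip3 was at -1.32 in exosome 4 h and -1.28 in untreated 4 h cells, Slc2a1 at -1.11 and -1.13, Pfkl at -0.79 and -0.88, Hmgcs1 at -0.60 and -0.49, Bcl2 at -1.04 and -0.82 and Pim2 at -0.94 and -0.71. None of these differed between exosome 4 h and untreated 4 h in the direct test: the difference was -0.04 ± 0.14 for Bnip3, -0.23 ± 0.12 for Bcl2 and -0.24 ± 0.09 for Pim2, with adjusted p of 0.92 or more, which does not show that the levels were equal. NF-kB targets had a median of 0.38 in exosome 4 h and 0.12 in untreated 4 h cells, with 9 and 0 higher. For Relb the values were 1.08 and 0.10, and the difference of 0.98 ± 0.28 was not called (adjusted p = 0.59). For Nfkbia they were 0.95 and 0.19, and the difference of 0.76 ± 0.23 was not called either (adjusted p = 0.679).

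The direct test called 23 genes, all higher in exosome 4 h than in untreated 4 h (0.155% of the genes tested), and none lower by limma, where 269 were lower at an unadjusted p below 0.05. edgeR called 22 higher and 1 lower, and DESeq2 22 and 0. With no filter on low values 30 were higher and 5 lower, with batch 2 alone 36 and 3, and with exosome 4 h replicates 1 and 2 left out 9 and 7. Of the 23 genes, 22 averaged below 10 normalized counts at 0 h, and Wsb2 was the other. Genes at or near 0 in untreated libraries entered the test through treated ones and could hardly be called other than higher, so the direction of these 22 is a description. Wsb2 had 1891, 1235 and 2017 in exosome 4 h libraries, against 962, 896 and 954 in untreated 4 h libraries, a difference of 0.84 ± 0.16 on the log2 scale (adjusted p = 0.0215). Its treated libraries were all above the untreated ones, and it lost the call without exosome 4 h replicate 1 or 3 or untreated 4 h replicate 1 or 3. It also lost the call in 7 of the 15 other alternatives run. Among the other 22 genes the difference on the log2 scale was 4.77 ± 0.45 for Tyrp1, 3.17 ± 0.40 for Dct, 4.66 ± 0.62 for Maf, 3.40 ± 0.45 for Cdc42ep1, 4.39 ± 0.60 for Ryk and 3.65 ± 0.53 for Peg10. Tyrp1 was at 0 in the 3 untreated 4 h libraries, whereas Dst had 13.8, 1.70 and 1.95 there and Trpm1 5.17, 0 and 1.95, and neither Dst (2.83 ± 0.68) nor Trpm1 (2.48 ± 0.60) was called in this test. With a stricter filter, a mean of at least 50 normalized counts, no gene was called. Of the 23 genes, 22 are then no longer tested, and Wsb2 was still tested and lost its call. With that filter 266 genes were higher and 143 lower at an unadjusted p below 0.05.

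Exosome-treated cells at 2 h and 8 h placed the 4 h levels in time. At 4 h, 70 genes were higher (0.472%) and 106 lower (0.715%) than at 2 h in the treated cells. Bcl2 averaged 4777 ± 324, 2548 ± 335 and 4081 ± 698 normalized counts at 2, 4 and 8 h (SD, n = 3 each), so the 4 h mean was the lowest of the 3. Hsd17b7 fell by 0.85 ± 0.07 on the log2 scale between 2 h and 4 h (adjusted p = 3.48e-07), Pim2 by 0.87 ± 0.09, Adamts6, a secreted metalloprotease, by 1.22 ± 0.13, Ptpn9, a phosphatase, by 0.63 ± 0.08 and Gbe1, the glycogen branching enzyme, by 0.86 ± 0.11. Adamts6 was at -0.42 ± 0.12 against 0 h (adjusted p = 0.0546), since 0 h lay below 2 h. The cholesterol list had 11 of 23 members lower at 4 h than at 2 h, and HIF targets 5 of 17. Tyrp1 and Maf did not differ between 2 h and 4 h, at -0.26 ± 0.45 and -0.55 ± 0.62. From 4 h to 8 h, 5 genes were higher (0.0337%) and none was lower by limma, where 1147 were lower at an unadjusted p below 0.05. edgeR called 4 higher and 0 lower, and DESeq2 called 66 and 77. They were Kcnq5, a potassium channel, at 0.83 ± 0.13, Rnf128, a ubiquitin ligase of T cell anergy, at 0.40 ± 0.07, Bcl2 at 0.67 ± 0.12, Bnip3 at 0.80 ± 0.14 and Impa2, an inositol phosphatase, at 0.54 ± 0.10. All 5 were lower at 4 h than at 0 h. Both tests use the same exosome 4 h libraries, so low values there favour both calls, and this is a description. Without exosome 4 h replicate 1 none of the 5 was called, and without exosome 8 h replicates 1, 2 and 3 the count was 179, 3 and 1. The balance turned in the first of these, with 24 higher and 155 lower, and with batch 2 alone it was 210 and 459. For the 4 h minus 2 h test the count lay between 53, without exosome 2 h replicate 1, and 140, and it was 55 without exosome 2 h replicate 3, and 90, 83 and 98 without exosome 4 h replicates 1, 2 and 3.

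The change from 0 h differed between the batches at 55 genes (0.371% of those tested), with batch 1 holding 1 library of each group and the spread taken from the others. The smallest p-values were those of Odc1, Etv4, Tfrc, Relb, Shroom3 and Slc26a11. Odc1, the first enzyme of polyamine synthesis, had 3997, 2894 and 3733 normalized counts in exosome 4 h libraries, against 3594, 2646, 2584 and 2536 at 0 h, 0.58 within batch 2 and -0.31 within batch 1 on the log2 scale. Tfrc, the transferrin receptor, had 7780, 3568 and 7984 in exosome 4 h libraries, against 6181, 8142, 8064 and 8127 at 0 h, -0.04 within batch 2 and -0.79 within batch 1. Neither gene was called over both batches together, and the low Tfrc library is the batch 1 treated one.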

How the data were processed

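The authors deposited 1 table of normalized counts per gene, a signal on a linear scale: reads per gene divided by 1 size factor per library. Total RNA was extracted with TRIzol and sequenced as paired ends on a HiSeq1500, per the labels' protocols. Per the submitters' processing notes, the tools include CASAVA 1.8.4, and STAR 2.4.2 and featureCounts 1.5.0 are listed with the build GRCm38.p2, as are R 3.3.2 and DESeq2. Not given in the sources used here are their settings, the annotation release, the use of strand and the handling of multiply mapped reads, so paralogs and overlapping genes are uncertain.

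Whole reads were recovered from the deposited values by each library's smallest step, and 100% of values were whole within 0.01 read. Depth over the 28 libraries was 6072984 to 24085812 reads. Genes with at least 10 normalized counts in at least 3 libraries were tested (14828 of 30608). log2(normalized count + 1) was fitted in limma 3.58.1 (R 4.3.3) to all 28 libraries, each group having its own mean and batch being a covariate (18 residual degrees of freedom), and p-values were adjusted by Benjamini-Hochberg at 0.05. Fold changes on this scale understate the change of low genes. edgeR 4.0.16 (585 genes) and DESeq2 1.42.0 (864 genes) served as alternatives on the recovered reads, with other pseudocounts, filters, scalings, groupings and each replicate left out. The fit was also run on simulated reads. These had no difference between batches and no shift by transcript length, GC or muscle transcripts, so that run cannot bear on these. The samples were grouped by title, and the p-values measure the spread between cultures of 1 line.

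The genes named are, of those called, in the same direction in both batches and without overlap, the 10 largest changes each way and the 8 largest with a mean of at least 500 normalized counts, up to 4 called members of each list, the 6 smallest p-values of each further comparison and a set of fixed genes, some left out for length. Late glycolysis enzymes and other members named outside that rule were chosen after their values were seen. The gene lists and members were chosen with earlier results of these data known. Promoters are RefSeq windows on GRCm38.p6, and gene positions are from GENCODE on GRCm38. Intervals of read ratios are exact at 95%, and the floor for a group at 0 is 3 reads over the group. Some members of the cholesterol list are counted but not reported here by name.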

Additional observations from a re-analysis of the deposited data

Results flagged for a closer look

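In the 0 h group 1 library often lay far from the other 3, by a gap test that chance passes in about 1 of 20 groups. It was mostly replicate 1, the 1 batch 1 library at 0 h, as is seen in these normalized counts. Replicate 1 was the highest for the HIF and glycolysis genes Ankrd37 (2424), P4ha1 (3905), Ero1l (14974) and Hk2 (4697), and for the lipid genes Hsd17b7 (898.4) and Scd2 (39697). It was also the highest for Bcl2 (6199), Osm (449.9), Lif (186), Cd8a (113.9), Prdm1 (2963), Ctla4 (436.9), Sh3pxd2a (4.326), Ptpn9 (2727), Kcnq5 (663.4), Impa2 (5758), Odc1 (3594), Etv4 (1076) and Hspa5 (18192). It was the lowest for Il18r1 (167.3), Tfrc (6181) and Ung (509.1). In other libraries Maf was the highest in replicate 4 (1.064) and Ryk in replicate 2 (1.178), each from 1 read, and Serpinb9f was the lowest in replicate 3 (12.96).

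The change of exosome 4 h minus 0 h differed between batches in the test of that difference for 9 named genes. On the log2 scale batch 2 minus batch 1 was 1.469 for Relb, 0.8056 for Nfkbia, 1.07 for Cmtm4, 0.8899 for Odc1, 1.179 for Etv4, 0.7512 for Tfrc, 1.345 for Shroom3, -0.9151 for Il18r1 and -1.202 for Slc26a11. Batch 1 holds 1 library of each group, so its spread was taken from the other libraries.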

How the results depend on the processing

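Over 75 called genes named in the text and the alternatives run, 1341 of 1633 pairs kept direction and call, 292 kept the direction and lost the call, and none reversed. Pairs in which DESeq2 gave no adjusted p, those of Dct, Trpm1 and Mitf among them, are counted here as kept, although no call was made. For exosome 4 h minus 0 h, 630 genes became 1948 with batch 2 alone, 61 with no batch term (60.7% of them higher), 93 without the 2 exosome 4 h libraries with muscle transcripts (33.3% higher) and 359 with a length and GC correction plus the replicate block (37.9% higher). Leaving out 1 replicate gave 152 to 837. For exosome 4 h minus untreated 4 h, 23 became 39 with batch 2 alone, 35 with no filter, 2 with only the groups compared and 0 with the stricter filter, and 16 to 24 with a replicate left out. For untreated 4 h minus 0 h, 177 became 78 without 2 libraries with few genes at 0, 291 with DESeq2, 692 with batch 2 alone, 10 with no batch term and 320 with only the groups compared, and 52 to 185 with a replicate left out. For exosome 4 h minus 2 h, 176 became 338 with DESeq2, 594 with batch 2 alone, 313 with the length and GC correction, 15 with no batch term, 117 with no filter and 4 with only the groups compared, and 53 to 140 with a replicate left out. For exosome 8 h minus 4 h, 5 became 1 without the 2 libraries with few genes at 0, 143 with DESeq2, 669 with batch 2 alone, 61 with the length and GC correction, 24 with that and the replicate block, 0 with no batch term, 9 with no filter and 28 with the stricter filter, and 0 to 179 with a replicate left out. The batch difference of 55 became 157 with the length and GC correction and 144 with no filter, and could not be fitted without a batch term, with batch 2 alone, with the replicate block, with only the groups compared or with a replicate left out. Except where fewer libraries or genes entered, the cause was not tested.

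With the replicate block, exosome 4 h minus 0 h gave 277 genes (112 higher and 165 lower) and untreated 4 h minus 0 h gave 92. Same-numbered exosome 4 h and 0 h libraries deviated from their group means with correlations of -0.40, -0.36 and 0.24. Numbers 1 and 2 join libraries of different batches, so the first 2 values carry the batch difference. After the batch term the correlations were -0.14, 0.07 and -0.08, against -0.07 to 0.17 for libraries of unlike number. The values thus showed no sign of pairing by number, and they cannot exclude it. The length and GC correction, with and without the block, and leaving out the 2 libraries with few genes at 0 were added after seeing the data. DESeq2 gave no adjusted p for Dct, Trpm1 and Mitf, and 1 melanocyte gene was called with it, against 4 in the main fit. Genes near 0 rest on few reads, and changes below the limit of 3 reads were not detectable.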
